A study of Mus musculus with 23 samples.

Results

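Smooth muscle and mural cell genes were examined in the hearts of mouse embryos at embryonic day 13.5, as 9 genes chosen by name: Acta2, Tagln, Myh11, Cnn1, Smtn, Mylk, Lmod1, Pdgfrb and Cspg4. All 9 were present among the 23457 genes of the deposited count table, and all 9 passed the filter on low counts that left 13941 genes for testing. The data were 23 RNA-seq libraries from hearts of C57BL/6 embryos in 3 genotype groups, and the labels do not say whether each library is a separate embryo. The 7 triple-knockout libraries were GRK2 fl/fl, GRK5 fl/fl and GRK6 KO/KO with the Nkx2.5Cre driver. The 8 haploinsufficient libraries were GRK2 fl/wt with the same GRK5 fl/fl, GRK6 KO/KO and Nkx2.5Cre, so that by label the GRK groups differed in 1 allele of GRK2. The 8 wild-type libraries carried wild-type alleles of the 3 kinases and no Cre. Cre and the kinase genotype therefore cannot be told apart in comparisons with wild type. Nkx2.5Cre is active in the cardiac lineage, and whole hearts also hold cells in which floxed alleles stay intact.

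Vascular smooth muscle cells and pericytes, together called mural cells, wrap the endothelial tube and give vessels their tone and stability. Contraction rests on a smooth muscle myosin that is switched on by phosphorylation of its light chain and pulls on actin filaments dressed with calponin, transgelin and smoothelin. Mural precursors are recruited to new vessels through PDGF receptor beta, and in the heart many of them descend from the epicardium. In the embryo several of the contractile genes, among them Acta2, Tagln and Cnn1, are also transcribed in immature cardiomyocytes, so a bulk heart library does not report mural cells alone. Between bulk libraries, fewer cells of a type and less RNA per cell cannot be told apart.

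Depth, as total counts in genes, was 6657734 to 13864731 per triple-knockout library, 1757257 to 11025358 per haploinsufficient library and 3838166 to 14050559 per wild-type library. The targeted genes were lower in the triple-knockout libraries, with a log2 fold change against wild type of -0.65 for Adrbk1 (GRK2), -0.76 for Grk5 and -1.04 for Grk6 (edgeR adjusted p = 0.0119, 0.00215 and 0.000150). Against wild type the haploinsufficient hearts had -0.33 for Adrbk1 (edgeR adjusted p = 0.207), -0.85 for Grk5 and -0.94 for Grk6. Nkx2-5, the gene named in the Cre driver, was lower too. Its log2 fold change against wild type was -0.98 in triple-knockout and -0.50 in haploinsufficient hearts (edgeR adjusted p = 0.000283 and 0.0665). In triple-knockout over haploinsufficient hearts it was -0.48 (edgeR adjusted p = 0.141). The part of Nkx2-5 in the member levels was not tested. Some libraries stood apart by markers of neighbouring organs. A score for neighbouring organs (lung, foregut, liver, thymus), the mean log2 level of 13 tested genes of 16 relative to the wild-type mean, exceeded 1.5 in 4 of 7 triple-knockout libraries (replicates 1, 2, 3 and 7), in 4 of 8 haploinsufficient libraries (replicates 1, 4, 7 and 8) and in 1 of 8 wild-type libraries (replicate 4). Summed over these markers, levels ran from 14.01 to 184 CPM (counts scaled to a common library total) in triple-knockout, from 17.2 to 296 CPM in haploinsufficient and from 7.59 to 69.4 CPM in wild-type libraries. The remaining markers, Foxa1, Foxn1 and Sftpc, were below the filter, so Foxn1, the gene listed for the thymus, is not in the score. Of the 13 tested markers, 11 had a positive and 2 a negative log2 fold change in triple-knockout against wild-type hearts. In haploinsufficient against wild-type hearts 12 were positive and 1 was negative.

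In the deposited mm10 annotation the 9 genes lie on 6 chromosomes and have between 3 (Lmod1) and 42 (Myh11) merged exons. Promoters of 6 members were found in the RefSeq table (build GRCm38.p6), those of Acta2, Cnn1, Smtn, Mylk, Lmod1 and Cspg4, as windows of 250 bases before to 50 bases after the start site. Among them, 4 are shown, from 2 sets of members that varied together among libraries, as given below. These were Acta2 with Cnn1 (Pearson r 0.80) and Mylk with Lmod1 (Pearson r 0.515). Cspg4, which varied with the first set, and Smtn, which belonged to neither, are not shown. Capitals mark a CATTCC motif on either strand, to which TEAD factors bind, and a serum response factor element, the CArG box, with 1 G or C in its AT core. The Acta2 window is chr19:34255324-34255623 (minus strand), the Cnn1 window chr9:22099003-22099302 (plus strand), the Mylk window chr16:34784700-34784999 (plus strand) and the Lmod1 window chr1:135324563-135324862 (plus strand).
Acta2: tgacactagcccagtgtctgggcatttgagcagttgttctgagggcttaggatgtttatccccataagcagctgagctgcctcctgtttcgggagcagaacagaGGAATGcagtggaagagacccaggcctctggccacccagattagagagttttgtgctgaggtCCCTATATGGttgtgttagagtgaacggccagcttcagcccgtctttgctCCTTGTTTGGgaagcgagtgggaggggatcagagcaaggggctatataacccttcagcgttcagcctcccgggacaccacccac
Cnn1: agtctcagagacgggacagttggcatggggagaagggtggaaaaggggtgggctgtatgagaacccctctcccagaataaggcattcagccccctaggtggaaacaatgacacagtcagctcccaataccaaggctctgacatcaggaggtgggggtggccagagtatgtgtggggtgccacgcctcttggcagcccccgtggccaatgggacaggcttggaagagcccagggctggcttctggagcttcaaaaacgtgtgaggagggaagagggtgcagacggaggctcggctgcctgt
Mylk: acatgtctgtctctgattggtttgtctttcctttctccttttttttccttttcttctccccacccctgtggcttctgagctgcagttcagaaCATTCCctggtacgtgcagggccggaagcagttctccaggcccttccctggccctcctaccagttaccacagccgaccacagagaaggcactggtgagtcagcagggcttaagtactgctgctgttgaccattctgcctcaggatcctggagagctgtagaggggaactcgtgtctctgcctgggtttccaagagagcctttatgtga
Lmod1: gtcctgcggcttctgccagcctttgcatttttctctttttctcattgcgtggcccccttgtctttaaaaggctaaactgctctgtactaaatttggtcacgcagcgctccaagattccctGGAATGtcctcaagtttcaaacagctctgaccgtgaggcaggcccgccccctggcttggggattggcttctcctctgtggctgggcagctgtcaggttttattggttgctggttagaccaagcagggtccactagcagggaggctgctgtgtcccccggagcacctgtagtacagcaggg
The Acta2 window held a pair of CArG boxes with 1 G or C in the core, with their first bases 84 and 34 bases before the start site, and a CATTCC 146 bases before it on the strand opposite to the one printed. The Mylk and Lmod1 windows held 1 CATTCC each, 158 bases before the start on the printed strand and 130 bases before it on the opposite strand. The Cnn1 window held none of these motifs. CCAAT was found in the Cnn1 window at 128 and 47 bases before the start, and on the opposite strand in the Lmod1 window at 69 and 30 and in the Mylk window at 235 bases before it. No window of the 6 held a CArG box with an uninterrupted AT core. Of 32851 promoters of the same length, 1.63% held such a strict CArG box, 8.5% one with 1 G or C in its core, 14.7% CATTCC, 13.6% TATAAA and 37.4% CCAAT, each counted on both strands. A motif match is a description of letters and shows no binding.

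Levels differed widely between members. Per length, Acta2, the smooth muscle actin of the thin filament, was highest with 437 ± 71.4 FPKM (fragments per kilobase and per mapped fragments of the library, the authors' deposited values; mean ± SD, n = 23 libraries). Tagln, the actin-binding transgelin, followed with 159 ± 32.6 FPKM and Cnn1, the calponin that tunes actomyosin, with 138 ± 25.1 FPKM. Tagln was above Cnn1 in 20 of 23 libraries, but their ranges over libraries overlapped, at 118 to 229 and 101 to 205 FPKM. Next came 3 genes whose means lay within their spread of each other, namely Cspg4 with 25.9 ± 5.58 FPKM, Pdgfrb with 25.5 ± 6.9 FPKM and Smtn with 24.5 ± 4.23 FPKM. Cspg4 encodes the proteoglycan NG2 on pericytes, Pdgfrb the receptor for PDGF-B, and Smtn the actin-associated smoothelin. The smooth muscle myosin heavy chain Myh11, a marker of differentiated smooth muscle, averaged 7.66 ± 10.1 FPKM and Mylk, the kinase of the myosin light chain, 7.05 ± 5.17 FPKM. Their order was not fixed, since Myh11 exceeded Mylk in 7 of 23 libraries. Lmod1, a leiomodin that nucleates actin filaments in smooth muscle, had the lowest mean with 1.77 ± 0.814 FPKM, and was below Mylk in all 23 libraries. It was not below Myh11 throughout. The medians over the 23 libraries were 1.92 FPKM for Myh11 and 1.6 FPKM for Lmod1, and in wild-type libraries 1.45 and 1.88 FPKM.

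In triple-knockout against wild-type hearts 1 of the 9 genes was called, Tagln, which fell. Over all 13941 genes tested, 1.19% were called in this comparison, 0.488% higher and 0.703% lower (adjusted p under 0.05, edgeR). The median log2 fold change of the 9 members was -0.20, beside 0.01 over all genes, and 5 of the 9 were negative. An unadjusted p under 0.05 was reached by 5 members, and by 1503 of the 13941 genes. In no member were the CPM ranges of the groups separate, which was so for 0.933% of all genes.

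Tagln levels in triple-knockout libraries ran from 181 to 228 CPM with a median of 196 CPM, against 228 to 335 CPM with a median of 272 CPM in wild-type libraries. The highest triple-knockout library, replicate 5, stood just above the lowest wild-type library, replicate 7, and the other 6 triple-knockout libraries lay below all wild-type libraries. The means were 199.6 ± 17.3 CPM (SD, n = 7) in triple-knockout and 282 ± 39.3 CPM (SD, n = 8) in wild-type hearts, a log2 fold change of -0.49 ± 0.11 (SE), or 1.41-fold lower (edgeR adjusted p = 0.0173). Within the libraries with IDs 1 to 12, Tagln averaged 195 ± 9 CPM in 3 triple-knockout and 313 ± 28.2 CPM in 4 wild-type hearts. Within IDs 19 to 30 it averaged 203 ± 22.7 CPM in 4 triple-knockout and 252 ± 18.6 CPM in 4 wild-type hearts. The difference had the same sign in both ID sets, with log2 fold changes of -0.67 and -0.32, and neither set alone passed the test (edgeR adjusted p = 0.0774 and 0.562).

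The Tagln call did not hold in every fit. Without the 9 libraries with a score above 1.5, which left 3 triple-knockout and 7 wild-type libraries, the log2 fold change was -0.36 (edgeR adjusted p = 0.410), and without triple-knockout replicate 1 the adjusted p was 0.0512. The call was also lost with the score as a term (edgeR adjusted p = 0.0824) and with limma on log2(FPKM + 0.1) or log2(FPKM + 1) (adjusted p = 0.0541 and 0.0501). Tagln, on chromosome 9 at 45929628 to 45936058, shares 95 exon bases with Pcsk7 on the other strand. Of the 50-base stretches in its transcripts, 58.3% also occur in transcripts of Pcsk7 or of the antisense gene Gm48529 in the GENCODE annotation. The libraries did not keep the strand, so reads of these genes cannot be told apart there.

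Acta2, Cnn1 and Smtn lay lower on average in triple-knockout hearts without passing the test, and Lmod1 did not lie lower. Acta2 ran from 778 to 1264 CPM (median 1028) in triple-knockout and from 1043 to 1540 CPM (median 1213) in wild-type libraries. Its groups overlapped, with 4 of 7 triple-knockout libraries below the wild-type range, and its log2 fold change was -0.28 ± 0.12 (edgeR adjusted p = 0.360). Cnn1 ran from 203 to 301 CPM (median 239) in triple-knockout and from 251 to 410 CPM (median 303) in wild-type libraries. Of the triple-knockout libraries 5 of 7 were below the wild-type range, with a log2 fold change of -0.34 ± 0.11 (edgeR adjusted p = 0.183). Without the 9 libraries with a score above 1.5 the log2 fold change was -0.13 for Acta2 and -0.07 for Cnn1. Smtn ran from 62.1 to 92.4 CPM (median 77.2) in triple-knockout and from 54.9 to 117 CPM (median 93.0) in wild-type libraries, which held both the lowest and the highest value of the pair. Its log2 fold change was -0.20 ± 0.12 (edgeR adjusted p = 0.604), or -0.30 without those 9 libraries. Lmod1, at 4.35 to 14.8 CPM (median 6.74) in triple-knockout and 5.30 to 10.03 CPM (median 7.61) in wild-type libraries, had a log2 fold change of 0.08 ± 0.29 (edgeR adjusted p = 0.963) that turned to -0.58 without them.

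The myosin members varied most. Myh11 ran from 5.97 to 210 CPM (median 39.8) in triple-knockout libraries and from 6.41 to 92.0 CPM (median 9.23) in wild-type libraries. Triple-knockout replicates 1, 7 and 3 were the highest, at 209.6, 181 and 125 CPM, and the only wild-type library above 17.4 CPM was replicate 4. The means were 84.5 ± 86.0 CPM (SD, n = 7) in triple-knockout and 20.3 ± 29.2 CPM (SD, n = 8) in wild-type hearts, a log2 fold change of 2.15 ± 0.79 (edgeR adjusted p = 0.249). Without wild-type replicate 4 the adjusted p was 0.0462 with a log2 fold change of 3.17, and without the 9 libraries with a score above 1.5 the log2 fold change was 0.06 (edgeR adjusted p = 0.984). Mylk ran from 29.9 to 126 CPM (median 46.3) in triple-knockout libraries and from 21.5 to 75.3 CPM (median 31.6) in wild-type libraries. The same 3 triple-knockout libraries led, and wild-type replicate 4 was again the highest of its group. The log2 fold change of Mylk was 0.79 ± 0.38 (edgeR adjusted p = 0.460), and 0.21 without the 9 libraries with a score above 1.5 (edgeR adjusted p = 0.808). Mylk shares 333 exon bases with the antisense transcript E130310I04Rik, 4.26% of its exon length.

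The surface members split in sign. Pdgfrb ran from 107 to 246 CPM (median 166) in triple-knockout libraries and from 127 to 158 CPM (median 139) in wild-type libraries. The triple-knockout libraries spread to both sides, 4 above and 2 below the wild-type range, with a log2 fold change of 0.18 ± 0.14 (edgeR adjusted p = 0.712) that turned to -0.22 without the 9 libraries with a score above 1.5. Cspg4 ran from 131 to 255 CPM (median 196) in triple-knockout libraries and from 206 to 323 CPM (median 251) in wild-type libraries. Of the triple-knockout libraries 4 of 7 were below the wild-type range, with a log2 fold change of -0.30 ± 0.16 (edgeR adjusted p = 0.518), or -0.11 without those libraries.

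**Figure D1:**
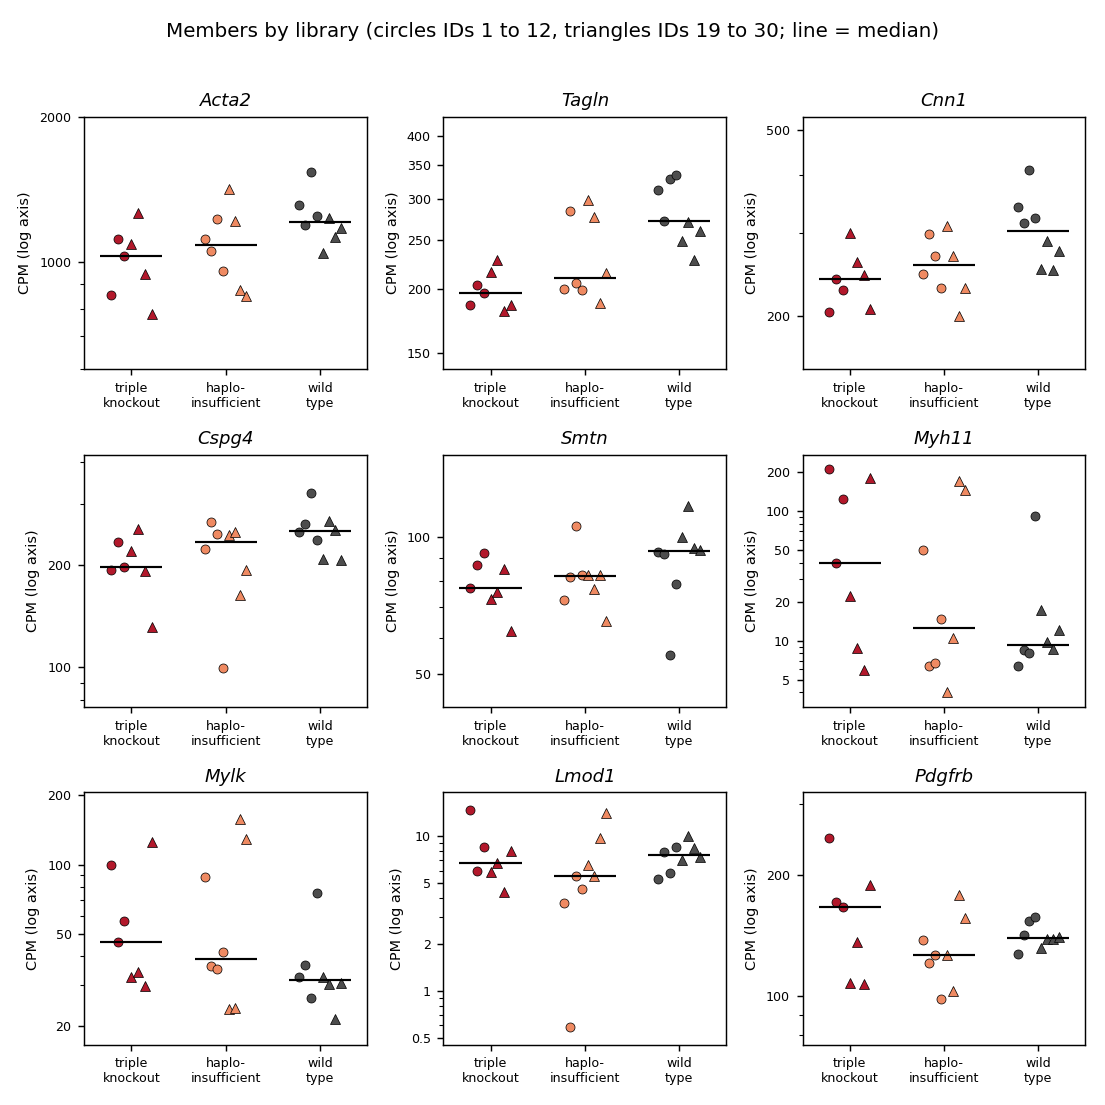
CPM of the 9 members in each library on log axes, by group (triple knockout, haploinsufficient, wild type), with circles for IDs 1 to 12, triangles for IDs 19 to 30 and a line at the group median. Tagln has 6 of 7 triple-knockout libraries below all wild-type libraries. Myh11 and Mylk spread over a wide range inside each group, in wild type mainly through replicate 4.

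In haploinsufficient against wild-type hearts none of the 9 genes was called by edgeR, by DESeq2 or by limma on FPKM, and 3 had an unadjusted p under 0.05 (2395 of 13941 genes over all). Over all genes tested, 2.24% were called in this comparison, 0.861% higher and 1.38% lower. The median log2 fold change of the 9 members was -0.18, beside 0.01 over all genes, and 7 of the 9 were negative. The wild-type libraries are the same as those set against the triple knockout, so the 2 comparisons share their controls.

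Tagln ran from 188 to 299 CPM (median 211) in haploinsufficient libraries and from 228 to 335 CPM (median 272) in wild-type libraries. Of the haploinsufficient libraries 5 of 8 lay below the wild-type range and the other 3, replicates 5, 2 and 6, lay inside it. The log2 fold change was -0.27 ± 0.11 (edgeR adjusted p = 0.185). Acta2 ran from 849.8 to 1414 CPM (median 1086) and Cnn1 from 199.8 to 312 CPM (median 257) in haploinsufficient libraries. Their log2 fold changes against wild type were -0.18 ± 0.12 and -0.26 ± 0.11 (edgeR adjusted p = 0.445 and 0.216), with 3 of 8 and 4 of 8 haploinsufficient libraries below the wild-type range. Without the 9 libraries with a score above 1.5 the log2 fold changes were -0.0419 for Tagln, -0.000982 for Acta2 and -0.0838 for Cnn1. Smtn ran from 65.3 to 105 CPM (median 82.2) in haploinsufficient libraries, inside the wild-type range, with a log2 fold change of -0.16 ± 0.12 (edgeR adjusted p = 0.522), or -0.0638 without those libraries. Lmod1 ran from 0.584 to 14.2 CPM (median 5.54) in haploinsufficient libraries, with a log2 fold change of -0.20 ± 0.30 (edgeR adjusted p = 0.774), or -0.56 without them. The lowest value was a single count in replicate 2.

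Myh11 ran from 4.01 to 171 CPM (median 12.6) in haploinsufficient libraries and from 6.41 to 92.0 CPM (median 9.23) in wild-type libraries. Replicates 7, 8 and 1 were the highest of the haploinsufficient group, at 171, 144 and 50.3 CPM, and its other 5 libraries held 14.6 CPM or less. The means were 50.9 ± 67.7 CPM in haploinsufficient and 20.3 ± 29.2 CPM in wild-type hearts (SD, n = 8 each), a log2 fold change of 1.56 ± 0.82 (edgeR adjusted p = 0.332), which was -0.54 without the 9 libraries with a score above 1.5. Mylk ran from 23.7 to 158 CPM (median 39.0) in haploinsufficient libraries, with replicates 7, 8 and 1 again above all others. The log2 fold change of Mylk was 0.97 ± 0.38 (edgeR adjusted p = 0.186), and -0.07 without the 9 libraries with a score above 1.5. Pdgfrb ran from 98.5 to 178 CPM (median 127) and Cspg4 from 99.4 to 267 CPM (median 233) in haploinsufficient libraries. Their log2 fold changes against wild type were -0.10 ± 0.14 and -0.25 ± 0.15 (edgeR adjusted p = 0.759 and 0.407), or -0.22 and -0.0128 without those libraries.

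Between the GRK groups, which carry Cre and differ by label in 1 allele of GRK2, edgeR and DESeq2 called none of the 9 genes. None had an unadjusted p under 0.05 (2137 of 13941 genes over all). Limma on FPKM called no gene of the whole table here, so its lack of a call says nothing about the members. Adrbk1 (GRK2) itself had a log2 fold change of -0.32 in this comparison (edgeR adjusted p = 0.279). Its ranges overlapped, at 26.4 to 42.8 CPM in triple-knockout and 21.8 to 57.5 CPM in haploinsufficient libraries. Over all genes tested, 0.395% were called, 0.0789% higher and 0.316% lower, and the CPM ranges were separate for 0.0933% of genes and for none of the members. The median log2 fold change of the 9 members in triple-knockout over haploinsufficient hearts was -0.05, beside 0.00 over all genes. The smallest p among members was that of Tagln, with means of 199.6 CPM in triple-knockout and 234 CPM in haploinsufficient hearts and a log2 fold change of -0.22 ± 0.11 (edgeR adjusted p = 0.333). Pdgfrb had means of 161 CPM in triple-knockout and 131 CPM in haploinsufficient hearts, a log2 fold change of 0.28 ± 0.14 (edgeR adjusted p = 0.340), or 0.00140 without the 9 libraries with a score above 1.5. In the libraries with IDs 1 to 12 alone, Pdgfrb averaged 195 ± 45 CPM in 3 triple-knockout and 121 ± 16.6 CPM in 4 haploinsufficient hearts and was called higher (log2 fold change 0.69, edgeR adjusted p = 0.0490). Within IDs 19 to 30 it averaged 135 ± 38.5 CPM in triple-knockout and 141 ± 32.8 CPM in haploinsufficient hearts (log2 fold change -0.07). The other 7 members had log2 fold changes between -0.17 (Mylk) and 0.59 (Myh11).

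**Figure D2:**
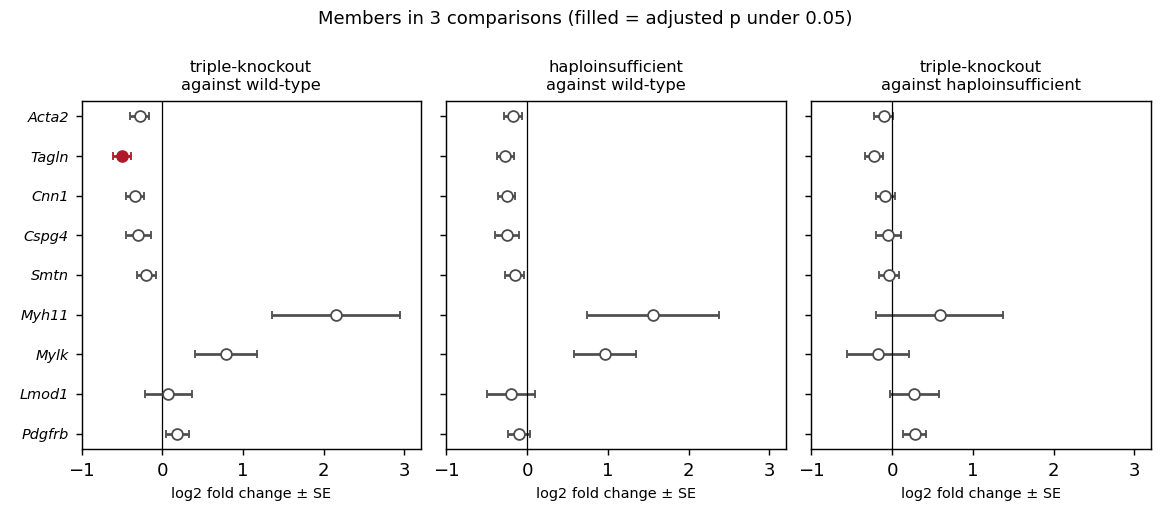
Log2 fold change with its standard error for each member in the comparisons of triple-knockout with wild-type, haploinsufficient with wild-type and triple-knockout with haploinsufficient hearts, with a filled point where the adjusted p was under 0.05. Tagln in triple-knockout against wild-type hearts is the 1 filled point, and the bars of Myh11 are the widest.

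The members did not vary as 1 set. After the group and the ID set were removed, log2 CPM of Acta2, Tagln, Cnn1 and Cspg4 varied together over the 23 libraries, with Pearson r of 0.82 for Tagln with Cnn1, 0.80 for Acta2 with Cnn1, 0.70 for Acta2 with Cspg4 and 0.67 for Acta2 with Tagln. Myh11, Mylk, Pdgfrb and Lmod1 formed the other set, with r of 0.92 for Myh11 with Mylk, 0.76 for Mylk with Pdgfrb, 0.75 for Myh11 with Pdgfrb and 0.60 for Myh11 with Lmod1. Between the sets r was negative for all 16 pairs, down to -0.71 for Acta2 with Mylk. Smtn belonged to neither, with r from -0.29 to 0.00 against the other 8 genes. Spearman's rho was 0.82 for Tagln with Cnn1, 0.91 for Myh11 with Mylk and -0.67 for Acta2 with Mylk. All points share the library, its depth and the scaling to its total count, so these coefficients describe the libraries and carry no test.

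**Figure D3:**
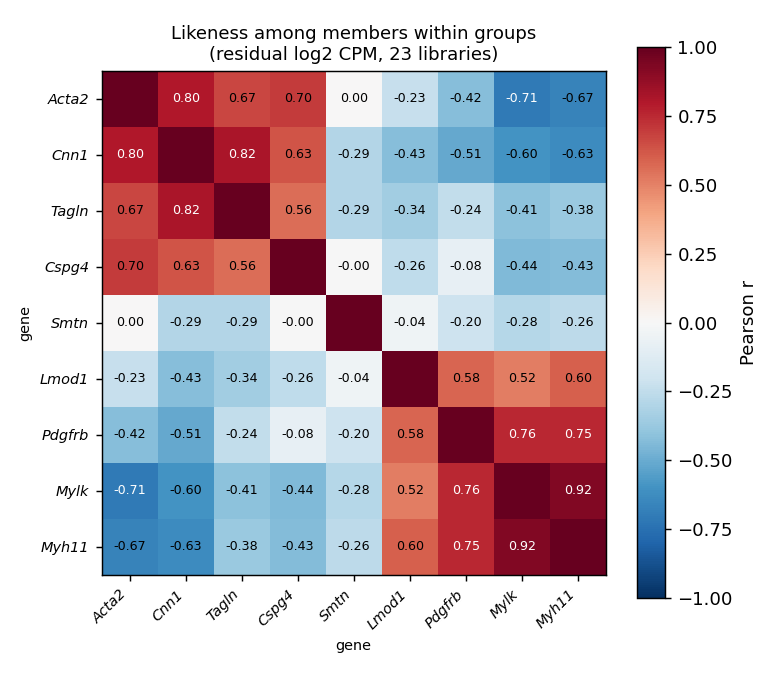
Pearson r of log2 CPM between members over 23 libraries, after the group and the ID set were removed, with red for positive and blue for negative values. Acta2, Cnn1, Tagln and Cspg4 form one red block, Lmod1, Pdgfrb, Mylk and Myh11 the other, and the blocks are blue against each other.

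Members differed in spread. The residual SD of log2 CPM was 1.87 for Myh11, larger than that of 99.7% of all genes tested, 0.85 for Mylk and 0.82 for Lmod1. It was 0.36 for Cspg4, 0.30 for Pdgfrb, 0.25 for Smtn, 0.23 for Acta2, 0.22 for Cnn1 and 0.21 for Tagln, beside a median of 0.30 over all genes. Inside the groups, the highest Myh11 library exceeded the lowest by 35.1-fold in triple-knockout, 42.6-fold in haploinsufficient and 14.4-fold in wild-type hearts. For Acta2 this ratio was 1.62, 1.66 and 1.48 in the same order of groups.

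Markers of other cells moved with both sets. Over the 23 libraries, with group and ID set removed, Mylk had a Pearson r of 0.97 (rho 0.96) with the neighbouring-organ score and Myh11 one of 0.93 (rho 0.91). These values were 0.95 and 0.89 without the 2 libraries farthest from the median score. Pdgfrb had 0.69 and Lmod1 0.53, which was 0.38 without those 2 libraries. With the mean log2 level of 12 cardiomyocyte markers, Acta2 had r of 0.79, Cnn1 0.76, Cspg4 0.59 and Tagln 0.53, against -0.87 for Mylk, -0.85 for Myh11, -0.81 for Pdgfrb and -0.55 for Lmod1. With the mean log2 level of 6 tested markers of neural crest, neurons and glia, Pdgfrb had r of 0.81, Myh11 0.79, Mylk 0.73 and Lmod1 0.69, and Myh11 had 0.69 with the fibroblast markers. The neural crest, neuron and glia markers summed to 41.7 to 115 CPM in triple-knockout, 34.5 to 52.6 CPM in haploinsufficient and 30.3 to 41.4 CPM in wild-type libraries, with 6 of 6 positive in triple-knockout against wild-type hearts and 1 called, the neuronal growth protein gene Gap43 (log2 fold change 0.55, edgeR adjusted p = 0.00383). Their part in the member levels was not tested. Of the 9 libraries with the highest neighbouring-organ score, all 9 were among the 9 highest for Mylk, 8 were among the 9 highest for Myh11 and 7 for Pdgfrb. Of the same libraries, 8 were among the 9 lowest for Cnn1, 7 for Tagln and 6 for Acta2. The part of neighbouring tissue in these levels was not tested apart from the values without those libraries and with the score as a term.

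**Figure D4:**
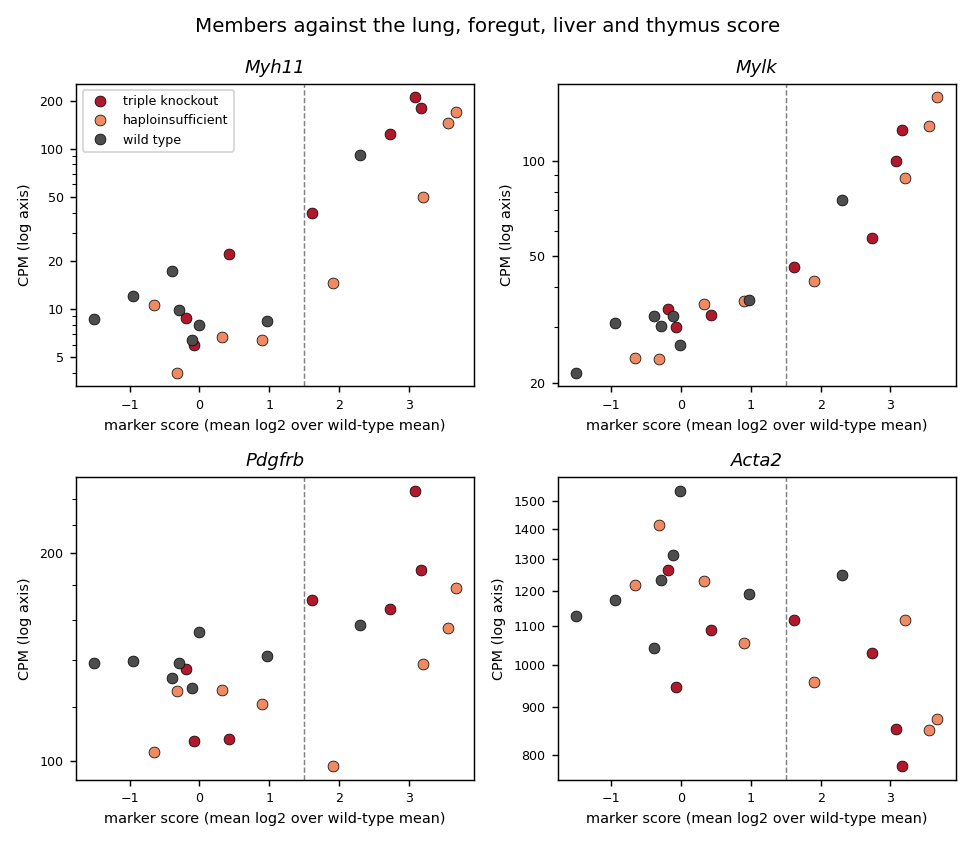
CPM (log axis) of Myh11, Mylk, Pdgfrb and Acta2 in 23 libraries against the neighbouring-organ score (mean log2 relative to the wild-type mean), coloured by group, with a dashed line at 1.5. Mylk climbs with the score in all 3 groups, Myh11 is at 14.6 CPM or more in all 9 libraries right of the line, and Acta2 is lower at the highest scores.

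Single genes most like a member under the same measure were listed after the values were seen. Acta2 was closest to Des, the intermediate filament of muscle (r 0.88), and Tagln to Cnn2, a non-muscle calponin (r 0.79). Cspg4 was closest to Flnc, the filamin of striated muscle (r 0.95). Cnn1 was closest to Slc16a3 (r 0.90), Smtn to Gpx3 (r 0.87) and Lmod1 to Zfp36l2 (r 0.93). Mylk was closest to Tbx2 (r 0.96) and Myh11 to Thbd and Islr (r 0.95 each). Pdgfrb was closest to Chst3 and to Notch3, a receptor that mural cells carry (r 0.90 each). Across the mean of all 9 members, which adds sets of opposite sign, the 8 closest genes were Eif4g1, Arl10, Fasn, Ap3d1, Aars, Usp10, Col5a1 and Cdc25a, with r from 0.87 to 0.80, and from 0.79 to 0.605 without the 2 farthest libraries.

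Among other genes of the contractile apparatus, edgeR called genes only in haploinsufficient against wild-type hearts. For this list and those that follow, the share called over all genes tested was 1.19% in triple-knockout against wild-type hearts. It was 2.24% in haploinsufficient against wild-type hearts and 0.395% between the GRK groups. Of 39 tested contractile and cytoskeletal genes outside the members, none was called in triple-knockout against wild-type hearts by edgeR, by DESeq2 or by limma, with 8 at an unadjusted p under 0.05 and a median log2 fold change of -0.12. The smallest p was that of Actg2, the actin of visceral smooth muscle, with 21.95 CPM in triple-knockout and 7.79 CPM in wild-type hearts (log2 fold change 1.57, edgeR adjusted p = 0.194). Triple-knockout replicates 1, 2, 3 and 7, those with a score above 1.5, held 50.3, 16.2, 30.9 and 35.3 CPM of Actg2, and replicates 4, 5 and 6 held 9.10, 6.60 and 5.32 CPM, inside the wild-type range of 1.55 to 21.3 CPM. Csrp1 (-0.27), Pdlim7 (-0.23) and Rock1 (0.27) followed, with edgeR adjusted p of 0.206, 0.224 and 0.316. In haploinsufficient against wild-type hearts 2 genes of the list were called, 1 higher and 1 lower, with a list median of -0.04. Myl9, the regulatory light chain that Mylk phosphorylates, had 1321 to 2293 CPM (median 1518) in haploinsufficient and 1044 to 1379 CPM (median 1262) in wild-type libraries, with 7 of 8 haploinsufficient libraries above the wild-type range (log2 fold change 0.42 ± 0.11, edgeR adjusted p = 0.0394). The Myl9 call was lost in 10 of 23 cases of leaving out a library. Between the GRK groups none of the 39 was called by edgeR or by DESeq2, with 6 at an unadjusted p under 0.05. Lpp had the smallest p (log2 fold change 0.39, edgeR adjusted p = 0.164).

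Among 18 tested genes of mural cells and pericytes, single genes were called. Foxc1, a forkhead factor of mural and neural crest cells, fell in triple-knockout hearts, at 14.1 to 33.1 CPM (median 17.8) against 22.1 to 36.6 CPM (median 30.1) in wild-type libraries. All triple-knockout libraries but replicate 1 lay below the wild-type range (log2 fold change -0.59 ± 0.14, edgeR adjusted p = 0.0278), and the call was lost in 8 of 23 cases of leaving out a library. Anpep, the membrane peptidase CD13 found on pericytes, fell in haploinsufficient hearts, at 1.38 to 5.68 CPM (median 3.52) against 6.51 to 15.2 CPM (median 8.41) in wild-type libraries. The ranges were separate (log2 fold change -1.26 ± 0.26, edgeR adjusted p = 0.00802), as they were for 0.452% of all genes in that comparison. In triple-knockout over haploinsufficient hearts Anpep was higher, at 4.24 to 11.6 CPM (median 9.10) in triple-knockout libraries (log2 fold change 1.19 ± 0.27, edgeR adjusted p = 0.0410). That call was lost in 16 of 23 cases of leaving out a library, and without the 9 libraries with a score above 1.5 the log2 fold change was 0.70. The list medians were 0.06, -0.17 and 0.20 in the comparisons of triple-knockout with wild-type, haploinsufficient with wild-type and triple-knockout with haploinsufficient hearts.

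Among 29 tested ligands and receptors of mural recruitment, the ligand Angpt1 was called lower in both GRK groups against the shared wild-type libraries and its receptor Tek in 1 of them. Angpt1, the ligand that steadies vessels and in the embryonic heart comes from myocardium, had 28.3 to 46.9 CPM (median 39.8) in triple-knockout, 27.5 to 57.7 CPM (median 43.8) in haploinsufficient and 50.0 to 79.7 CPM (median 67.0) in wild-type libraries. All 7 triple-knockout libraries and 7 of 8 haploinsufficient libraries lay below the wild-type range. The log2 fold changes against wild type were -0.85 ± 0.14 in triple-knockout and -0.65 ± 0.14 in haploinsufficient hearts (edgeR adjusted p = 0.000781 and 0.00902), and both calls held on leaving out any of the 23 libraries. Without the 9 libraries with a score above 1.5 the triple-knockout value was -0.72 (edgeR adjusted p = 0.0760). Of 36 alternative fits, which include each library left out, 34 kept the triple-knockout call and 34 the haploinsufficient call. Tek, the endothelial receptor of Angpt1, had 136 to 157 CPM (median 148) in triple-knockout, 108 to 164 CPM (median 134) in haploinsufficient and 148 to 227 CPM (median 182) in wild-type libraries. It was called in haploinsufficient hearts (log2 fold change -0.45 ± 0.09, edgeR adjusted p = 0.00484). Tek is itself 1 of the 9 tested endothelial markers, of which 9 of 9 were negative there and 3 were called, Tek included. Their summed level, which contains Tek, was 899 to 1192 CPM in haploinsufficient and 1033 to 1375 CPM in wild-type libraries. The part of endothelial cells in the Tek result was not tested. The haploinsufficient Tek call was kept in 33 of 36 alternative fits. In triple-knockout hearts Tek had -0.32 ± 0.09 (edgeR adjusted p = 0.0852), and DESeq2 called it. The PDGF ligands and their other receptor Pdgfra were not called in any comparison by edgeR or DESeq2. Between the GRK groups none of the 29 was called by edgeR or by DESeq2, with 4 at an unadjusted p under 0.05. Jag1 had the smallest p (log2 fold change 0.45, edgeR adjusted p = 0.116).

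Among 26 tested regulators of smooth muscle transcription, Fhl2 fell in both GRK groups against the shared wild-type libraries. Fhl2, a LIM-domain cofactor of serum response factor, had 103 to 176 CPM (median 138) in triple-knockout, 114 to 191 CPM (median 140.1) in haploinsufficient and 183 to 264 CPM (median 222) in wild-type libraries. The log2 fold changes against wild type were -0.64 ± 0.12 in triple-knockout and -0.57 ± 0.12 in haploinsufficient hearts (edgeR adjusted p = 0.00369 and 0.00802), and both held on leaving out any library. Without the 9 libraries with a score above 1.5 the triple-knockout value was -0.40 (edgeR adjusted p = 0.186). Of 36 alternative fits, 33 kept the triple-knockout call and 34 the haploinsufficient call. Myocd, the cardiac and smooth muscle coactivator of serum response factor, had 108 to 169 CPM (median 122) in triple-knockout, 84.6 to 187 CPM (median 114) in haploinsufficient and 147 to 197 CPM (median 167) in wild-type libraries. It fell in haploinsufficient hearts (log2 fold change -0.47 ± 0.13, edgeR adjusted p = 0.0402) and had -0.41 ± 0.13 in triple-knockout hearts (edgeR adjusted p = 0.143). The haploinsufficient call was lost in 10 of 23 cases of leaving out a library, and the value was -0.31 without the 9 libraries with a score above 1.5 (edgeR adjusted p = 0.294). Foxf1, a forkhead factor of lung and gut mesenchyme that is also in the neighbouring-organ score, had 0 to 67.2 CPM in haploinsufficient and 0.221 to 7.97 CPM in wild-type libraries (log2 fold change 4.12 ± 1.05, edgeR adjusted p = 0.0340). The call was lost in 10 of 23 cases of leaving out a library. With the score as a term, which by construction contains Foxf1, its value was 0.39 (edgeR adjusted p = 0.775). Between the GRK groups none of the 26 was called by edgeR or by DESeq2, with 5 at an unadjusted p under 0.05. Mkl2 had the smallest p (log2 fold change 0.43, edgeR adjusted p = 0.189).

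**Figure D5:**
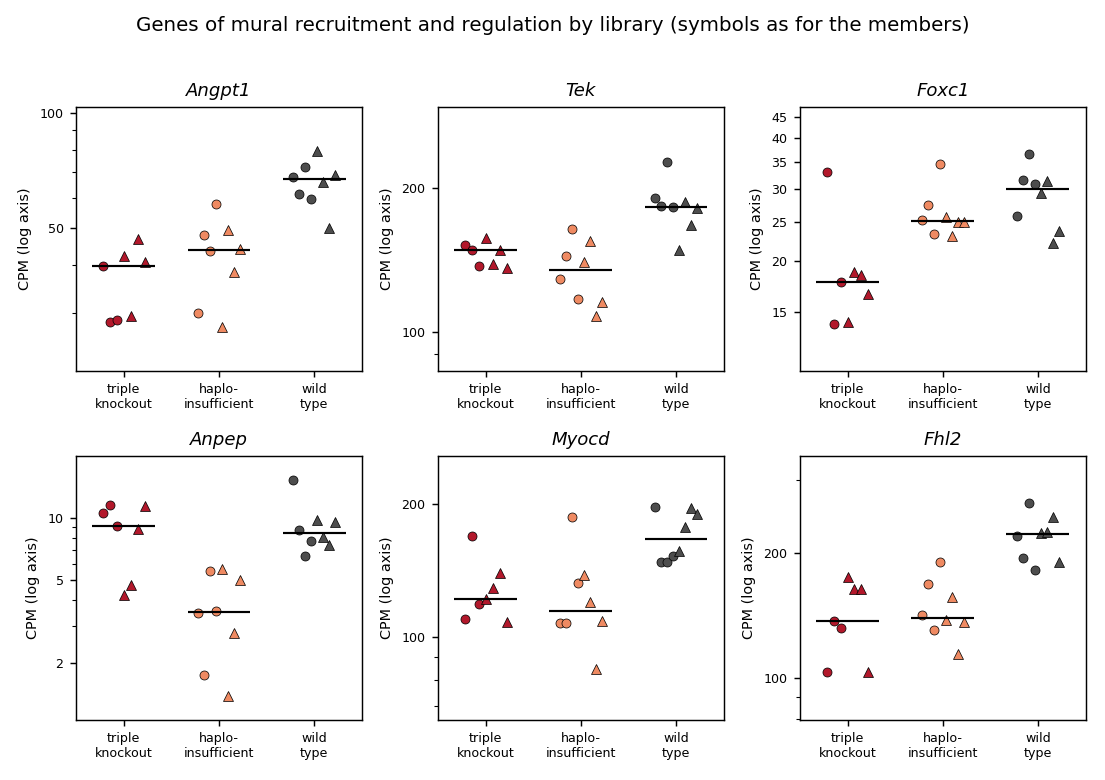
CPM (log axis) of Angpt1, Tek, Foxc1, Anpep, Myocd and Fhl2 in each library by group, with circles for IDs 1 to 12, triangles for IDs 19 to 30 and a line at the group median. The triple-knockout libraries of Angpt1 and Fhl2 lie below all wild-type libraries, and the haploinsufficient libraries of Anpep lie below all wild-type libraries.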

How the data were processed

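RNA of whole hearts was extracted with Trizol, depleted of ribosomal RNA, fragmented chemically and sequenced from a single end of 50 nt without keeping the strand, per the labels' protocols. The deposited counts of the authors are whole reads per gene, for which TopHat2 (version 2.0.10), HTSeq and the build mm10 are named in the submitters' processing notes. The deposited FPKM values of the authors come from Cufflinks (version 2.1), per the same notes. Genotype labels gave the groups. They do not say whether each library is a separate embryo, so p-values measure the spread between libraries. No pair of libraries in a group agreed within sampling noise, and the closest pair, haploinsufficient replicates 1 and 2, had a chi-square of 5.20 for each degree of freedom.

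A quasi-likelihood fit of edgeR (version 4.0.16, R version 4.3.3) over 23 libraries held group and library ID set (1 to 12 or 19 to 30) as terms, after TMM scaling and the edgeR expression filter (minimum count 10, minimum total 15). Counts of called genes leave out Cre and the targeted genes with their exon features. The test is two-sided, with Benjamini-Hochberg adjustment over all genes tested and a threshold of 0.05, and rose and fell are used only of genes that passed. The common biological coefficient of variation was 0.208. CPM values use TMM-scaled library sizes, log2 CPM a prior count of 1. Alternatives were DESeq2 (version 1.42.0), limma (version 3.58.1) on log2(FPKM + 0.1) and log2(FPKM + 1), DESeq2 size factors or upper-quartile scaling, a fit with no filter, one without the ID set, a replicate block, only the groups compared, each ID set alone, the neighbouring-organ score as a limit or a term, and each library left out. The fit was tested on simulated data.

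The members and the lists were chosen with earlier results of these data known. The text names all 9 members, every called gene of each list, otherwise up to 4 genes of a list with the smallest p, and the 10 tested genes, among those averaging 1 log2 CPM or more, that were most like the mean of the members. Not every gene chosen this way is reported here. Other genes are marked in the text as picked later, or are given beside a called value of the same gene in another comparison. Depth limits the precision of Lmod1 most, and values carry counting error beside the spread between libraries. Exon overlaps were taken from the deposited annotation file and sequences from RefSeq (GRCm38.p6).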

Additional observations from a re-analysis of the deposited data

Results flagged for a closer look

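Among 18 genes in 3 groups, 54 sets of values were examined for a library far from the rest of its group (Dixon's criterion), and 8 were marked. The criterion was applied to log2 CPM. Chance marks about 1 in 20 such sets, but genes measured in the same libraries are not independent. Myh11, Mylk and Foxf1 were all marked in wild-type replicate 4, so the number marked cannot be read against that rate. Of the 8 marked, 4 were members. Myh11 in wild-type replicate 4 had 92.0 CPM, with the next wild-type library at 17.4 CPM. Mylk in the same library had 75.3 CPM, with the next at 36.6 CPM. Lmod1 in haploinsufficient replicate 2 had 0.584 CPM, a single count in the shallowest library, with the next at 3.72 CPM. Cspg4 in triple-knockout replicate 7 had 131 CPM, with the next at 191 CPM.

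The other 4 were genes of the related lists. Foxc1 had 33.1 CPM in triple-knockout replicate 1, with the next at 18.8 CPM, and 34.7 CPM in haploinsufficient replicate 4, with the next at 27.5 CPM. Anpep had 15.2 CPM in wild-type replicate 1, with the next at 9.70 CPM. Foxf1, a marker of the neighbouring-organ score, had 7.97 CPM in wild-type replicate 4, with the next at 1.03 CPM. In that library the score was 2.30, the highest of the wild-type group, and the part of the score in Myh11 and Mylk there was not tested.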

How the results depend on the processing

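In triple-knockout against wild-type hearts, where 1 member was called, 0 were called with limma on log2(FPKM + 0.1) or log2(FPKM + 1), with IDs 1 to 12 or IDs 19 to 30 alone, without libraries with a score above 1.5 and with the score as a term (Tagln, edgeR adjusted p = 0.0824). On leaving out each library the count ran from 0 (without triple-knockout replicate 1) to 2 (without wild-type replicate 4, which added Myh11). In haploinsufficient against wild-type hearts, where 0 were called, 1 was called with the score as a term (Myh11, log2 fold change -1.37, edgeR adjusted p = 0.0406), and leaving out each library gave 0 throughout. Between the GRK groups, where 0 were called, 1 was called with IDs 1 to 12 alone (Pdgfrb) and 1 with the score as a term (Myh11, 1.17, edgeR adjusted p = 0.0419), and leaving out each library gave 0 throughout. The causes were not tested. The other alternatives left these counts as they were.

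Log2 fold changes that changed sign were those of uncalled members. In triple-knockout against wild-type hearts they were Myh11 (-0.20) and Mylk (-0.26) with the score as a term, Smtn with IDs 1 to 12 alone (0.11), Lmod1 with limma on log2(FPKM + 0.1) (-0.0125), with IDs 19 to 30 alone (-0.40), without libraries with a score above 1.5 (-0.58) and with the score as a term (-0.41), and Pdgfrb with IDs 19 to 30 alone (-0.0319), without libraries with a score above 1.5 (-0.22) and with the score as a term (-0.0763). In haploinsufficient against wild-type hearts they were Myh11 with IDs 1 to 12 alone (-0.41), without libraries with a score above 1.5 (-0.54) and with the score as a term (-1.37), Mylk without those libraries (-0.0717) and with the score as a term (-0.27), Smtn with IDs 1 to 12 alone (0.12), and Lmod1 (0.14) and Pdgfrb (0.0378) with IDs 19 to 30 alone. Between the GRK groups they were Myh11 (-0.62), Lmod1 (-0.54) and Pdgfrb (-0.0697) with IDs 19 to 30 alone, Cnn1 (0.0186) and Lmod1 (-0.0159) without libraries with a score above 1.5, Smtn (0.0279 and 0.0269) and Cspg4 (0.0536 and 0.0495) with limma on log2(FPKM + 0.1) and log2(FPKM + 1), and Mylk with both limma fits (0.0857 and 0.0618), the replicate block (0.20), IDs 1 to 12 alone (0.42), without libraries with a score above 1.5 (0.28) and with the score as a term (0.00784). On leaving out each library, Lmod1 ran from -0.23 to 0.21 in triple-knockout against wild-type hearts, and between the GRK groups Cspg4 ran from -0.15 to 0.0301, Lmod1 from -0.00262 to 0.50, Myh11 from -0.0662 to 1.17, Mylk from -0.51 to 0.17 and Smtn from -0.0870 to 0.026. The causes were not tested.

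Most same-numbered libraries of 2 groups did not vary together (correlations from -0.263 to 0.484, with 0 of 7, 0 of 8 and 2 of 7 pairs over 0.1). The exceptions were triple-knockout with haploinsufficient replicate 7 (0.484) and replicate 4 (0.127). The numbers were not taken as pairs in the main fit. With the replicate block the counts of called members were again 1, 0 and 0 (Tagln -0.53, edgeR adjusted p = 0.0358), and 134, 203 and 0 genes were called over all, against 166, 312 and 55, in the comparisons of triple-knockout with wild-type, haploinsufficient with wild-type and triple-knockout with haploinsufficient hearts. In the same order DESeq2 called 292, 561 and 269 genes, fits of only the groups compared 297, 246 and 1, IDs 1 to 12 alone 50, 20 and 176, IDs 19 to 30 alone 51, 179 and 1, fits without libraries with a score above 1.5 107, 128 and 0, and the score as a term 184, 175 and 179. Between the GRK groups no filter gave 88 genes and limma 0. Of the related genes, calls were lost in at least 1 fit for Angpt1, Anpep, Fhl2, Foxc1, Foxf1, Myl9, Myocd and Tek. Lmod1, with 1 to 223 counts a library, is the member most limited by depth.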

Other observations

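Paralogs of the members were measured beside them and none of 21 tested was called in any comparison by edgeR or by DESeq2. Limma called none of them either, but between the GRK groups it called no gene of the whole table. An unadjusted p under 0.05 was reached by 5, 3 and 0 in the comparisons of triple-knockout with wild-type, haploinsufficient with wild-type and triple-knockout with haploinsufficient hearts. In wild-type hearts Acta2, at 483 ± 58.9 FPKM (SD, n = 8), stood below the cardiac actin Actc1 with 4183 ± 426 FPKM and the cytoplasmic actins Actb with 1456 ± 119 and Actg1 with 594 ± 54.8 FPKM. It stood above the skeletal actin Acta1 with 179 ± 27.0 FPKM and the visceral actin Actg2 with 6.51 ± 5.21 FPKM. Among the calponins, Cnn2 had 223 ± 33.9 FPKM and Cnn3 108 ± 9.97 FPKM, beside 158 ± 28.2 FPKM for Cnn1. The non-muscle myosins Myh10 and Myh9 had 134 ± 17.5 and 89.5 ± 11.6 FPKM, beside 3.12 ± 4.36 FPKM for Myh11. The cardiac kinase Mylk3 had 99.1 ± 11.5 FPKM, beside 4.61 ± 2.22 FPKM for Mylk, and the cardiac leiomodin Lmod2 had 28.4 ± 8.35 FPKM, beside 1.84 ± 0.369 FPKM for Lmod1. Tagln2 had 153 ± 15.6 FPKM, beside 187 ± 28.9 FPKM for Tagln, and their ranges over libraries overlapped.

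Of the genes that mark pericytes in many organs, Mcam had 170 ± 19.3 FPKM in wild-type hearts, Abcc9 21.1 ± 1.95, Notch3 12.5 ± 1.17, Rgs5 7.31 ± 1.59 and Kcnj8 3.52 ± 1.06 FPKM (SD, n = 8). Vtn and Higd1b were below the filter, with 33 and 19 counts over all 8 wild-type libraries.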
